A study of Mus musculus with 2 samples.

Results

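The mitochondrial SLC25 carriers described here are the protein-coding genes of the mouse whose symbol is Slc25a and a number, without Slc25a28, Slc25a37 and Slc25a38. The rule reads only the gene type and the symbol, and 44 genes of the 21474 protein-coding genes measured met it. The data were polyA RNA-seq profiles of G1E-ER4, an immortalized male mouse line of erythroid precursors without a working Gata1 gene, into which a Gata1-estrogen receptor fusion was put that estradiol activates. There was 1 group, G1E-ER4 cells kept for 7 hours in 10 nM 17beta-estradiol, with 2 libraries that the labels number as biological replicates 1 and 2. Both libraries cite the same record of a biological sample, and their spread may therefore be technical. No untreated cells were part of the series, so nothing below is a change with estradiol.

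SLC25 carriers are proteins of the inner mitochondrial membrane that move nucleotides, phosphate, carboxylates, amino acids and cofactors between the cytosol and the matrix, often by exchanging 1 substrate for another. They are made in the cytosol and inserted by the TIM22 complex. A few members sit elsewhere: Slc25a17 is known from peroxisomes and Slc25a46 from the outer mitochondrial membrane. In erythroid cells the mitochondria supply ATP and carry out the first and last steps of heme synthesis, so substrates must cross the inner membrane in both directions.

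Replicate 1 held 59610967 expected counts and replicate 2 held 44689405. Levels are given as TPM, a share of all transcripts that is scaled by length and can be compared between genes. All 6 erythroid markers reached a TPM of 1 in each library, led by Gata1 at 1251 and 872 in replicates 1 and 2, Klf1 at 984 and 1394, and Epor at 184 and 153. Reads of the Gata1 fusion and of the native gene cannot be told apart here. Of the markers of other blood cells, 3 of 6 megakaryocyte, 2 of 6 myeloid, 1 of 5 mast cell and 1 of 5 lymphoid genes reached that level, as did 0 of 5 stromal and endothelial genes. Among these, Gp1ba stood at 52.6 and 52.7, Gp5 at 32.6 and 39.6, and Spi1 at 25.3 and 25.6, while Ppbp, Lyz2, Fcer1a, Mcpt8, Ms4a2, Cd3e, Cdh5 and Pecam1 were at 0 in both.

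The phosphate carrier led the family. Slc25a3 imports the phosphate from which ATP synthase makes ATP. It lies on chromosome 10 from 91116574 to 91124059 (GRCm38, minus strand). It had a TPM of 507 in replicate 1 and of 722 in replicate 2. The mean, 614 ± 152 (SD, n = 2), placed it 217th among all protein-coding genes. Slc25a3 alone held 31.9% of the family's TPM in replicate 1 and 42.3% in replicate 2.

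Slc25a3 is spliced with either of a pair of alternative exons at the position of exon 3. In mammals the version with the upstream exon is known from heart and skeletal muscle and the version with the downstream exon from most tissues. The sequences are shown because the choice between them sets which protein is made. Slc25a3-206 uses the upstream exon of 125 bases (chr10:91122207-91122331), and Slc25a3-201 uses the downstream exon of 122 bases (chr10:91121922-91122043), 163 bases further on. Both are printed 5′ to 3′ on the minus strand, and capitals mark the bases that differ between them or have no partner in a global alignment.
Slc25a3-206 exon 3: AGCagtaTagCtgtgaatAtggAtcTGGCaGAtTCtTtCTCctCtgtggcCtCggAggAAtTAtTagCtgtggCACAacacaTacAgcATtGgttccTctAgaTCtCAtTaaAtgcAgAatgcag
Slc25a3-201 exon 3: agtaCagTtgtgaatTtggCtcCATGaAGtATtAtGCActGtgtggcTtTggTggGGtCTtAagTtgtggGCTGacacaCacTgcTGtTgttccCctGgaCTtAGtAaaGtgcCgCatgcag
The exons matched at 77 of 122 aligned bases, 63.1%, and the upstream exon was 3 bases longer.

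Slc25a3-206, with the upstream exon, held 24.7% of the TPM of Slc25a3 in replicate 1 and 62.2% in replicate 2. Slc25a3-201, with the downstream exon, held 66.1% in replicate 1 and 30.2% in replicate 2. In TPM, Slc25a3-206 stood at 125 and 449 and Slc25a3-201 at 335 and 218, so the leading transcript was not the same in the 2 libraries. Over transcripts with only 1 of the exons, the upstream exon took 26.5% of TPM in replicate 1 against 65.5% in replicate 2; the mean was 46.0% ± 27.6 (SD, n = 2). The order was the same by expected counts, at 22.7% and 60.9%. Each transcript has 8 exons, of which 5 have the same ends in both. Exons 1, 3 and 8 differ, so the deposited estimates do not rest on the alternative exon alone.

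**Figure D1:**
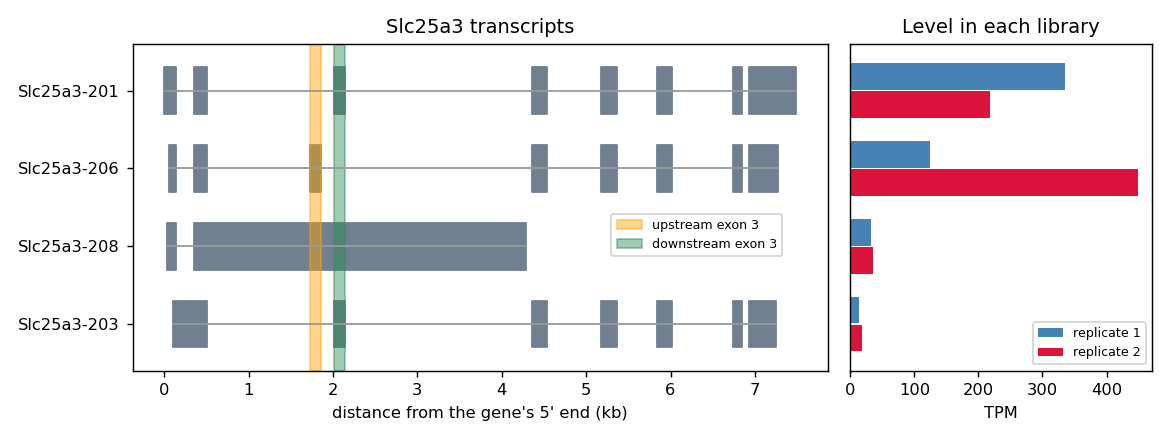
Exons of the 4 Slc25a3 transcripts that reached a TPM of 1 in either library, by distance from the gene's 5′ end in kilobases (left), and the TPM of each transcript in replicates 1 and 2 (bars, right). Slc25a3-201 is the highest bar in replicate 1 and Slc25a3-206 in replicate 2; Slc25a3-208 keeps the introns around both exons and stays at 32.8 and 36.1.

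In all, 29 of the 44 carriers were detected, meaning a TPM no lower than 1 in either library, which is 65.9% of them. Of all protein-coding genes, 38.3% were detected. The median over the 44 carriers was a TPM of 4.79, against 0.03 over all protein-coding genes. Among detected genes only, the order was the other way, with medians of 13.5 for carriers and 20.8 for all protein-coding genes. The family's summed TPM was 1590 in replicate 1 and 1708 in replicate 2, or 0.165% ± 0.00837 of all transcripts (SD, n = 2). The 5 most abundant carriers by the mean of the libraries, Slc25a3, Slc25a39, Slc25a1, Slc25a11 and Slc25a10, held 75.0% ± 2.52 of that sum (SD, n = 2). Of the 44, 4 carriers had a mean TPM of at least 100, 12 of at least 20, 18 of at least 10 and 30 of at least 1.

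**Figure D2:**
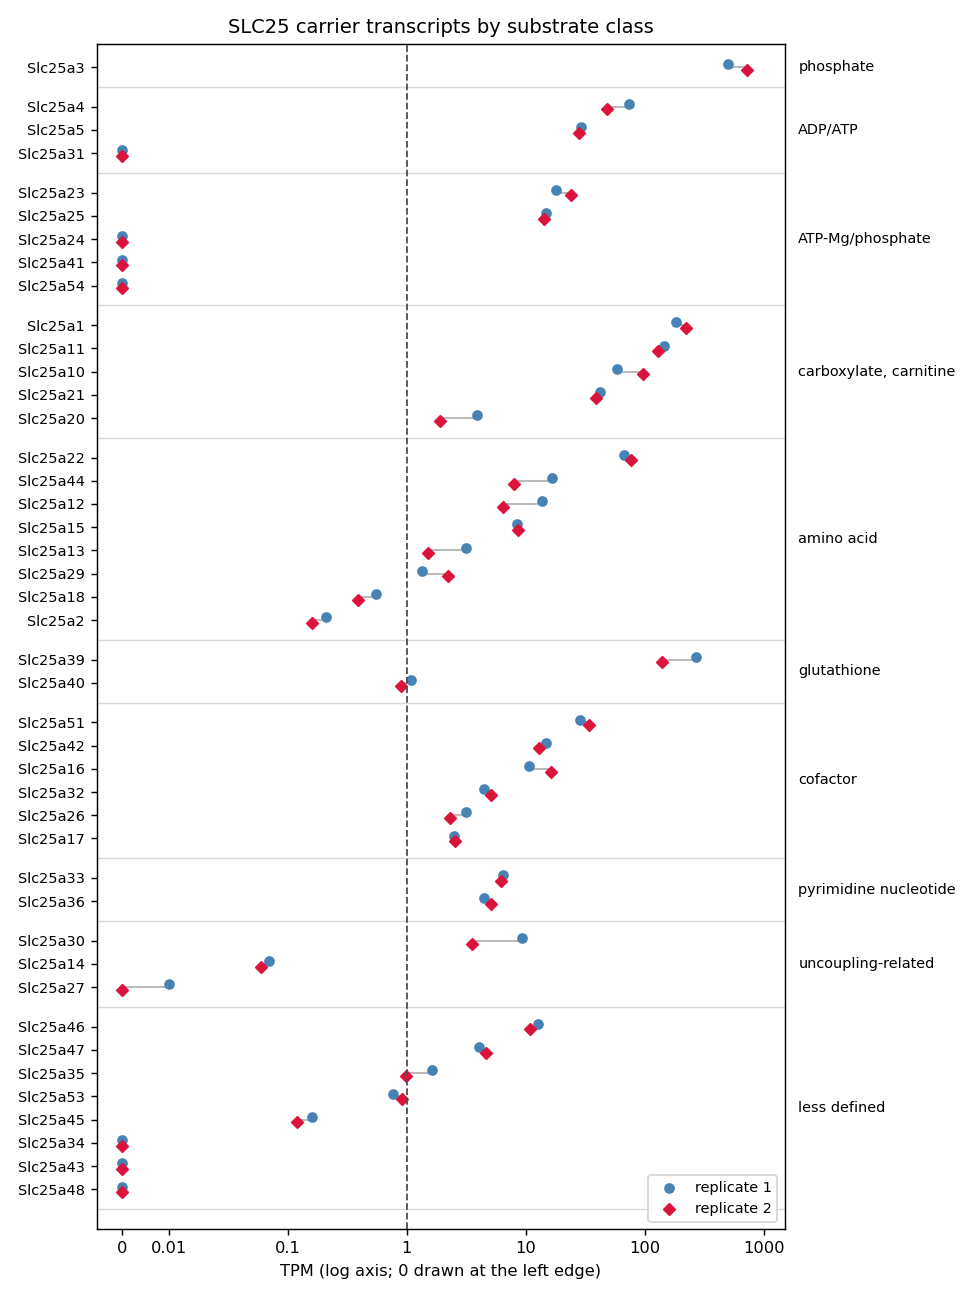
TPM of the SLC25 carriers reported here in replicate 1 (circles) and replicate 2 (diamonds) on a log axis, grouped by the class of substrate; a TPM of 0 is drawn at the left edge and the dashed line marks a TPM of 1. Slc25a3 lies farthest right, at 507 and 722, and 7 carriers lie at 0 in both libraries.

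The carriers that exchange ADP for ATP stood far below the phosphate carrier. Slc25a4 (ANT1, chromosome 8, 46206797 to 46211284), the form known from heart and muscle, stood at a TPM of 73.9 and 48.1 in replicates 1 and 2. Slc25a5 (ANT2, chromosome X, 36795651 to 36798807), the form known from dividing cells, stood at 28.9 and 28.0. Slc25a4 was the higher of the pair in both libraries, 2.56-fold in replicate 1 and 1.72-fold in replicate 2. The order of the pair turned when only transcripts annotated as protein coding were summed. Slc25a5 then stood at 27.4 and 26.2 and Slc25a4 at 5.34 and 2.19, so that Slc25a5 was 5.14-fold and 11.97-fold higher. Slc25a31 (ANT4), known from testis, had 0 counts in both libraries, and 3 counts would have made Slc25a5 at least 717-fold and 489-fold higher. Slc25a5 shares stretches of 594 to 900 bases at 95.3% to 98.3% identity with the pseudogenes Gm5529, Gm5560 and Gm5256. These held 0 counts in both libraries, except 1.98 counts of Gm5560 in replicate 2, so the level of Slc25a5 is uncertain as far as the authors' counting split reads among copies.

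Most of the Slc25a4 signal was assigned to a transcript that keeps part of an intron. Slc25a4-202, annotated as a retained intron, held 92.8% of the TPM of Slc25a4 in replicate 1 and 95.4% in replicate 2, and 89.0% and 93.0% of its expected counts. Slc25a11, the oxoglutarate and malate exchanger (chromosome 11, 70644196 to 70647479), had the same pattern by TPM. Slc25a11-205 held 81.4% and 76.0% of its TPM, and 52.4% and 45.3% of its expected counts. Slc25a11-201, the coding form, held 17.6% and 22.3% of TPM and 47.0% and 53.8% of expected counts, so by counts the leading transcript of replicate 2 was the coding form. The borders are shown because a read across them would not come from a transcript spliced there. Reads across them were not counted here. The transcripts also differ in length, at 1275 bases for Slc25a4-202 against 1925 for Slc25a4-201. Slc25a11-205 has 531 bases against 1711 for Slc25a11-201. The deposited shares therefore do not rest on the borders alone. Each line runs 5′ to 3′ on the minus strand, with 20 bases of exon in lower case and the first 60 bases of the intron in capitals (chr8:46208338-46208417 and chr11:70646016-70646095).
Slc25a4-202 exon 3 and intron 3: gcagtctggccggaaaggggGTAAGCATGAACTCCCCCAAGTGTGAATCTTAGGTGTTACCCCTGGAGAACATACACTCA
Slc25a11-205 exon 2 and intron 2: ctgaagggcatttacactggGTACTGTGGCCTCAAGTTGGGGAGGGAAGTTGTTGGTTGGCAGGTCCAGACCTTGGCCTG
The intron of Slc25a11 is 85 bases long and lies whole in Slc25a11-205. That of Slc25a4 is 777 bases long, of which 428 lie in Slc25a4-202.

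Across the family, 5 of the 29 detected carriers, 17.2%, had under 50% of their TPM in transcripts annotated as protein coding in both libraries. The share among all detected protein-coding genes was 18.0%, so the carriers were near the background. The 5 were Slc25a4, Slc25a11, Slc25a22, Slc25a42 and Slc25a12, and by expected counts 4 of them remained, without Slc25a11. Slc25a22, a glutamate carrier, had 20.5% and 15.2% of its TPM in coding transcripts. Its leading form, Slc25a22-204, is annotated as a target of nonsense-mediated decay and held 62.1% and 60.4% of TPM. Slc25a12 had 3.97% and 5.78% in coding transcripts, with Slc25a12-207, also annotated for decay, at 95.1% and 94.2%. Slc25a42 had 29.6% and 16.3% in coding transcripts, and its retained-intron forms Slc25a42-204 and Slc25a42-205 held 51.7% and 67.1%, and 14.7% and 13.2%. At the other end, 22 of the 29 had over 90% of TPM in coding transcripts in both libraries. The median coding share was 99.7% over detected carriers and 99.4% over all detected protein-coding genes. For Slc25a46, Slc25a15, Slc25a30, Slc25a33, Slc25a32, Slc25a47, Slc25a26 and Slc25a17 only 1 transcript was measured, a coding one. Their share of 100% was therefore fixed by the annotation.

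**Figure D3:**
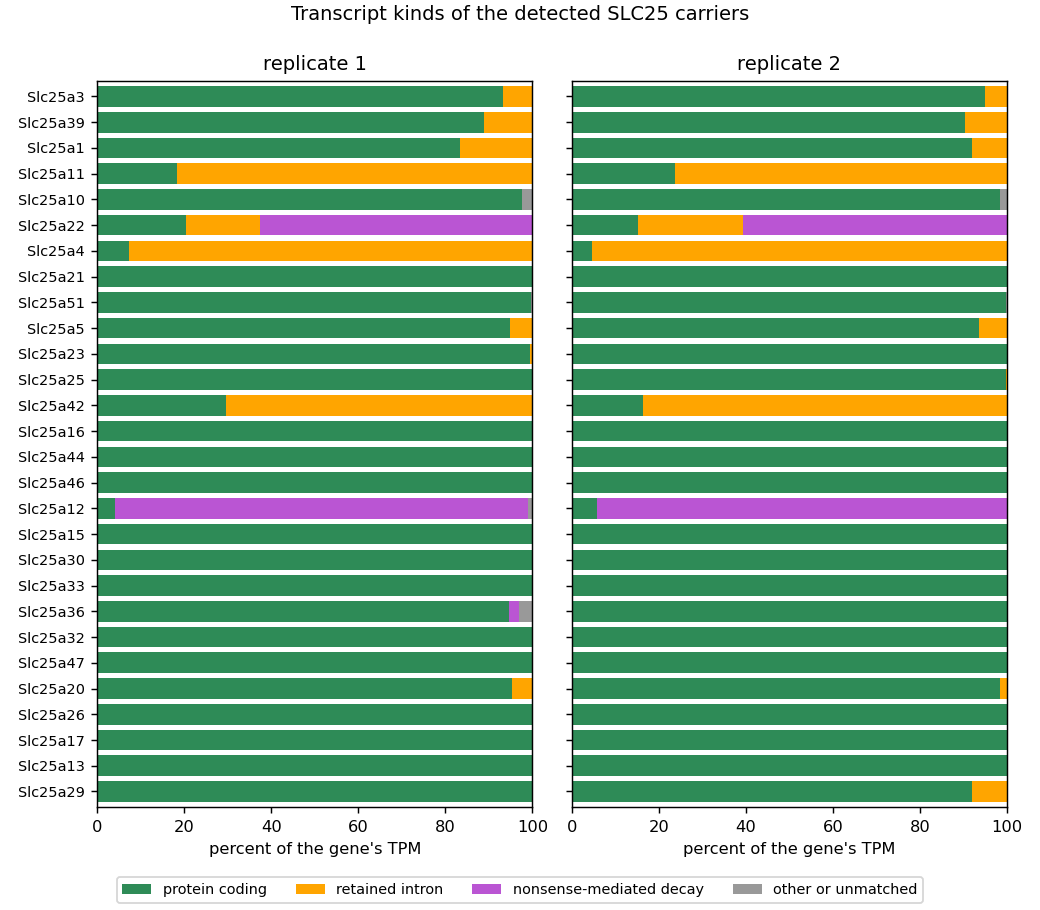
Share of TPM of the detected carriers reported here, by the annotated kind of its transcripts, in percent, in replicate 1 (left) and replicate 2 (right), ordered by mean TPM from the top. Coding transcripts fill under 50% of the bars of Slc25a11, Slc25a22, Slc25a4, Slc25a42 and Slc25a12 in both libraries.

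Transcript use was compared in the 11 carriers with a mean TPM of at least 20 and more than 1 transcript above a TPM of 0, and 8 of them had the same leading transcript in both libraries. The exceptions were Slc25a3, Slc25a39 and Slc25a23. For Slc25a39, Slc25a39-201 led in replicate 1 with 46.5%, against 35.7% in replicate 2, and Slc25a39-205 held 22.8% and 38.5%. Slc25a39-206 held 15.8% and 0.958%, Slc25a39-202 held 3.70% and 15.1%, and the retained-intron form Slc25a39-213 held 10.9% and 9.53%. By expected counts Slc25a39-201 led in both libraries, with 62.8% and 48.4%, against 11.5% and 19.8% for Slc25a39-205. For Slc25a23, the 3362-base Slc25a23-201 held 58.0% in replicate 1 and 27.9% in replicate 2. The 598-base Slc25a23-206 held 33.2% and 46.5%, and Slc25a23-204 held 7.98% and 25.5%. The scale of these shares is TPM, which gives short transcripts more weight: by expected counts Slc25a23-201 led in both libraries, with 89.8% and 70.4%. In other carriers of that set, Slc25a1-201 held 83.4% and 91.9%, with the retained-intron Slc25a1-204 at 10.1% and 0%. Slc25a10-201 held 97.7% and 98.4%, Slc25a51-202 97.0% and 99.5%, and Slc25a5-201 94.9% and 93.5%. Slc25a22-209, a coding form, held 17.1% and 12.3% of Slc25a22.

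All 5 carriers of carboxylates and carnitine were detected, with a median TPM of 77.6, and together they held 27.2% and 28.7% of the family's TPM. Slc25a1, which exports citrate for fatty acid synthesis, stood at 183 and 224 in replicates 1 and 2. It lies on chromosome 16 from 17925223 to 17928219. Slc25a11 stood at 145 and 129. Slc25a10, the dicarboxylate carrier (chromosome 11, 120491840 to 120499187), stood at 59.0 and 96.2. Slc25a21, the carrier of oxodicarboxylates such as oxoadipate, stood at 41.9 and 39.3. Slc25a20, which brings acylcarnitines in for fatty acid oxidation, stood at 3.86 and 1.90, the lowest of the class in both libraries. Its retained-intron form Slc25a20-202, with 3.12% and 1.58% of the TPM, shares stretches of 227 to 366 bases at 96.5% to 98.9% identity with 19 other genes. The order of Slc25a10 and Slc25a11 depended on the scale. By TPM Slc25a10 was 0.406 and 0.748 times Slc25a11, and by expected counts 1.29 and 2.16 times. Expected counts are not divided by length. Effective lengths were 1854 and 1871 bases for Slc25a10 and 583 and 649 for Slc25a11. In coding transcripts alone Slc25a10 was the higher in both libraries, at a TPM of 57.6 and 94.6 against 26.7 and 30.5. Slc25a10 overlaps the antisense gene Gm11788, which held 1 and 0 counts.

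Slc25a39, the mitochondrial glutathione importer, was second to Slc25a3 by the mean of the libraries, though Slc25a1 was above it in replicate 2. It has also been linked to heme synthesis in mouse and zebrafish erythroid cells, and it lies on chromosome 11 from 102402985 to 102407946. It stood at a TPM of 271 in replicate 1 and 141 in replicate 2. Its paralog Slc25a40 stood at 1.09 and 0.89, so Slc25a39 was 249-fold and 158-fold higher. Slc25a40 was not detected under the rule, since replicate 2 lay under a TPM of 1. Slc25a40-202, with 0.917% and 0% of the TPM of Slc25a40, shares 724 bases at 96.3% identity with the pseudogene Gm5066. That pseudogene held 0 counts in both libraries. The glutathione class held 17.1% of the family's TPM in replicate 1 and 8.30% in replicate 2, nearly all of it Slc25a39.

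Of the 8 amino acid carriers, 6 were detected, and the class had a median TPM of 5.42. Slc25a22 stood at 67.1 and 76.8 in replicates 1 and 2, against 0.55 and 0.39 for the other glutamate carrier, Slc25a18, known from brain astrocytes. Slc25a22 was thus 122-fold and 197-fold higher, on 6774 and 5357 expected counts against 34 and 17. Slc25a44, a carrier of branched-chain amino acids, stood at 16.5 and 7.90. The aspartate and glutamate exchangers of the malate-aspartate shuttle, Slc25a12 (aralar) and Slc25a13 (citrin), stood at 13.6 and 6.39, and at 3.15 and 1.52. The ratio of Slc25a12 to Slc25a13 was 4.32 and 4.20, although both genes had a lower TPM in replicate 2. In coding transcripts alone the order was the other way, with Slc25a12 at a TPM of 0.54 and 0.37 and Slc25a13 at 3.15 and 1.52. A stretch of 247 bases in Slc25a12-206 matched Adpgk at 99.6%, and Adpgk stood at 8.87 and 13.5. The ornithine carrier Slc25a15 stood at 8.44 and 8.56, and its paralog Slc25a2 at 0.21 and 0.16 on 13 and 7 expected counts. Slc25a29, a carrier of basic amino acids, stood at 1.34 and 2.22 and was the detected member nearest to the threshold.

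All 7 cofactor carriers measured were detected, with a median TPM of 13.5. Slc25a51, the mitochondrial NAD carrier, stood at 28.4 and 34.1 in replicates 1 and 2. Slc25a42, a coenzyme A carrier, stood at 14.7 and 12.9, and Slc25a16, which has also been tied to coenzyme A, at 10.7 and 16.4. By TPM the order of that pair was not the same in the libraries. Slc25a42 was at 1.37 times Slc25a16 in replicate 1 and 0.786 times in replicate 2. By expected counts, which are not divided by length, Slc25a42 was the higher in both libraries, at 2.32 and 1.97 times Slc25a16. Effective lengths were 2989 and 3115 bases for Slc25a42 and 1764 and 1242 for Slc25a16. In coding transcripts alone Slc25a16 was the higher in both, at a TPM of 10.7 and 16.4 against 4.34 and 2.1. Slc25a32, known for folate and FAD, stood at 4.44 and 5.13, the S-adenosylmethionine carrier Slc25a26 at 3.15 and 2.32, and the peroxisomal Slc25a17 at 2.48 and 2.55. The pyrimidine nucleotide carriers were low and close to each other, with Slc25a33 at 6.44 and 6.25 and Slc25a36 at 4.45 and 5.13. Slc25a36 had more expected counts, 1086 and 919 against 565 and 385 for Slc25a33. Its effective length was also greater, at 4817 and 5065 bases against 1731 and 1743. Slc25a36-208, with 2.25% and 0% of the TPM of Slc25a36, shares 544 bases at 99.6% identity with the pseudogene Gm13217, at 0 counts in both libraries. Slc25a33 overlaps the antisense gene Gm13068, also at 0.

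Of the ATP-Mg and phosphate carriers, which adjust the nucleotide content of the matrix, 2 of 5 were detected. Slc25a23 stood at 18.1 and 23.9 in replicates 1 and 2, and Slc25a25 at 14.7 and 14.2. Slc25a24, Slc25a41 and Slc25a54 had 0 counts in both libraries. Measured against the limit that 3 counts would set for Slc25a24 in each library, Slc25a23 was at least 578-fold and 536-fold higher than Slc25a24. On the same footing Slc25a25 was at least 471-fold and 318-fold higher than Slc25a24. Slc25a25 overlaps Naif1 over 379 bases, and Naif1 stood at 8.32 and 9.16.

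Of the carriers related to the uncoupling proteins, 1 of 3 was detected. Slc25a30 (KMCP1) stood at 9.36 and 3.52 in replicates 1 and 2 on 735 and 194 expected counts. Slc25a14 had 5 and 3 counts, a TPM of 0.07 and 0.06, and Slc25a27 had 1 and 0 counts. Of the 8 members of less defined substrate, 2 were detected. Slc25a46, which acts in mitochondrial fission and lipid balance, stood at 12.6 and 10.9. An annotated form that was not among the transcripts measured, Slc25a46-202, shares 383 bases with the overlapping gene B930094E09Rik, which held 5 and 0 counts. Slc25a47, known from liver, stood at 4.02 and 4.67. Slc25a35 stood at 1.64 and 0.99, just outside the rule for detection. It shares 547 bases with the overlapping gene Rangrf, at 10.3 and 9.22, so its level is uncertain. Slc25a53 stood at 0.77 and 0.91 and Slc25a45 at 0.16 and 0.12, while Slc25a34, Slc25a43 and Slc25a48 had 0 counts in both libraries. For the 7 members at 0 counts, 3 counts would be a TPM of 0.0184 to 0.0568 in replicate 1 and 0.0263 to 0.0806 in replicate 2.

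Some members are neighbours on a chromosome. Slc25a29 and Slc25a47 on chromosome 12 are 162 bases apart, and both were detected. Slc25a41 and Slc25a23 on chromosome 17 are 2056 bases apart, and only Slc25a23 had counts. Slc25a54 and Slc25a24 on chromosome 3 are 6461 bases apart, and both were at 0 counts. Slc25a43 and Slc25a5 on chromosome X are 18448 bases apart, and only Slc25a5 had counts. In all, 5 carriers lie on chromosome 11, and Slc25a39, Slc25a11 and Slc25a10 were among those detected while Slc25a35 was not.

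The difference between the libraries was tested gene by gene, with an exact two-sided binomial test on expected counts that takes counting noise as the only error and Benjamini-Hochberg adjustment over all genes tested. It compares these libraries and not conditions, and in bulk samples fewer cells of a type and less RNA per cell cannot be told apart. Of 35 carriers tested, 1 passed, with a difference of 2-fold or more and an adjusted p below 0.05, which is 2.86%, while 11.3% of all genes tested were called. Among all genes, 8.58% were called higher in replicate 1 and 2.72% higher in replicate 2, so 75.9% of the calls were higher in replicate 1; that share was 89.6% when libraries were scaled by total counts. The carrier called was Slc25a30 (chromosome 14, 75760117 to 75787037), higher in replicate 1. Its log2 ratio of replicate 2 over replicate 1, in scaled counts, was -1.31 (2.48-fold, adjusted p = 3.07e-33 by the exact binomial test). It was not called by edgeR's exact test with a common dispersion estimated over the 2 libraries, at an adjusted p of 0.678. That dispersion came from the same differences between the libraries that the test then judged. A gene can pass it only by differing more than genes in general did. The summed TPM of the erythroid markers was 2582 in replicate 1 and 2598 in replicate 2.

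The other carriers differed by less than 2-fold in TMM-scaled counts. In TPM, Slc25a44, Slc25a12, Slc25a13 and Slc25a20 differed by a little more, with replicate 2 at 0.478, 0.470, 0.483 and 0.492 times replicate 1. Those nearest to the threshold were Slc25a44, Slc25a13, Slc25a12, Slc25a20 and Slc25a39, with log2 ratios of -0.97, -0.95, -0.94, -0.92 and -0.85, all higher in replicate 1. Expected counts were 15556 and 5662 for Slc25a39, 1640 and 559 for Slc25a12, and 474 and 160 for Slc25a13. These 5 were called, beside Slc25a30, when libraries were scaled by total counts, a choice that moved the median log2 ratio of all genes tested by -0.20. In the other direction the largest log2 ratios were 0.81 for Slc25a10, on 5540 and 6362 counts, and 0.72 for Slc25a29, on 124 and 134. Slc25a1 was at 0.51 on 12418 and 11541 counts, Slc25a3 at 0.48 on 39587 and 36172, and Slc25a11 at 0.07 on 4287 and 2950. The median log2 ratio was 0.02 over the 35 carriers and -0.03 over all genes tested, and 16 carriers were below 0 and 19 above. Between the libraries, the TPM of 19 of the 29 detected carriers, 65.5%, lay within 1.5 times of each other, against 70.8% of all detected protein-coding genes.

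**Figure D4:**
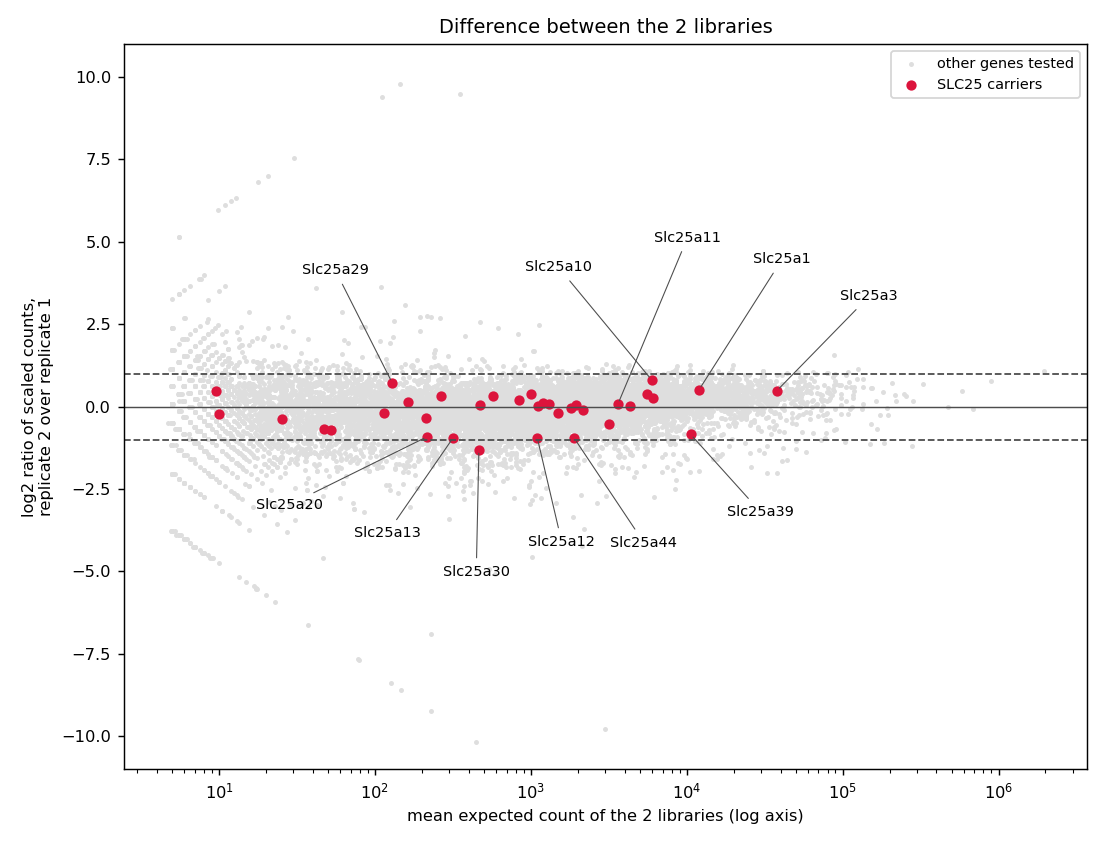
Log2 ratio of scaled expected counts, replicate 2 over replicate 1, against the mean expected count of the 2 libraries on a log axis, for the 35 SLC25 carriers (large points) and the other genes tested (small points); dashed lines mark a fold of 2. Slc25a30 is the only carrier that lies outside the dashed lines.

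Counts of the remaining members of the compared pairs were as follows. In the ADP and ATP class, Slc25a4 had 4369 and 1973 counts in replicates 1 and 2 and a log2 ratio of -0.54, while Slc25a5 had 1554 and 1062 and a log2 ratio of 0.06. Slc25a23 had 1894 and 1077 counts and a log2 ratio of -0.20, although its TPM was higher in replicate 2. TPM divides by effective length, which was 2070 bases in replicate 1 and 1276 in replicate 2, where the short transcripts held more of the gene. Slc25a25 had 2330 and 1570 counts and a log2 ratio of 0.04. Slc25a42 had 2222 and 1416 counts at -0.04, and Slc25a16 had 956 and 718 at 0.20. Slc25a15 had 1409 and 1000 counts at 0.12, and Slc25a40 had 145 and 83 at -0.19. The log2 ratio was 0.27 for Slc25a22, 0.37 for Slc25a36, 0.06 for Slc25a33, -0.37 for Slc25a18 and -0.24 for Slc25a2.

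The 3 carriers of iron and glycine that the rule leaves out were all detected. The glycine carrier Slc25a38 stood at a TPM of 146 and 154 in replicates 1 and 2, and the mitoferrins Slc25a28 and Slc25a37 at 43.3 and 38.4 and at 34.6 and 32.9. Among 5 relatives of the family with other symbols, Ucp2, uncoupling protein 2, stood at 1097 and 1055, above Slc25a3 in both libraries, while Ucp1 was at 0 and Ucp3 at 0.02 and 0.01. Mtch1 and Mtch2, carrier homologs of the outer membrane, stood at 157 and 189 and at 16.6 and 12.3.

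Of 11 genes listed for the path that imports carriers, 10 were detected, with a median TPM of 18.8. The most abundant were Timm10b at 389 and 324, Timm13 at 136 and 138, and Tomm70a, the outer-membrane receptor for carriers, at 107 and 129. Timm9 and Timm10, which together form the chaperone of the intermembrane space, were called different between the libraries and were higher in replicate 1. Timm9 stood at 18.1 and 7.99 and Timm10 at 16.9 and 4.77. These were 2 of 10 genes tested in the list, where 8.58% of all genes were called higher in replicate 1. Neither was called by edgeR's exact test, at adjusted p of 0.927 for Timm9 and 0.307 for Timm10. Of 10 other mitochondrial transport genes, 7 were detected, led by the outer-membrane channel Vdac2 at 528 and 448. The pyruvate carrier subunits Mpc2 and Mpc1 stood at 110 and 130 and at 26.2 and 12.9, and Mpc1 was called higher in replicate 1, though not by edgeR's exact test (adjusted p = 0.893).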

How the data were processed

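PolyA RNA-seq was measured in 2 libraries of 1 group. Per the deposited notes, values came from transcriptome alignments on mm10 and GENCODE M4, with the aligner and quantifier not given in the sources used here. Deposited by the authors were expected counts and posterior mean counts, which were rounded here for tests, TPM and posterior mean TPM, FPKM, and percent values of each transcript's share of its gene, which were not used. Names, kinds and positions came from GENCODE M21 on GRCm38, the same assembly with a later annotation: 42462 of 43346 gene rows and 196 of 199 carrier transcripts matched, of which 178 had the same length. Rows without a match held 148101 and 115050 counts of replicates 1 and 2; the 97 spike-in rows were at 0, and 26248 number-named rows had 2 counts in replicate 1 and 0 in replicate 2. Exon sequences were read from the GENCODE M21 transcripts.

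Genes with at least 10 counts over both libraries were tested against the ratio of library sizes after TMM scaling (edgeR 4.0.16 in R 4.3.3), with a prior count of 0.5 in log2 ratios. The test was checked before use on simulated counts that held counting noise only. That check cannot show how often the test calls genes through other variation between libraries. Near-identical copies were sought with BLAST 2.17.0 at 95% identity over 200 bases. Every member is named, except that some genes of the family and of the marker lists are not reported here; counts and log2 ratios are given for members called, the 5 most abundant and those in pairs, and transcripts from 10% of a gene's TPM. Errors are the SD over 2 libraries, and limits from 3 counts cover counting error only. The members, lists and pairs were chosen with earlier results of these data known; the comparisons of coding transcripts and of the Slc25a3 exons were added after seeing the data. Slc25a52, on the cofactor list, and protein sequences were not analysed here.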

Additional observations from a re-analysis of the deposited data

How the results depend on the processing

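The count of detected carriers lay between 20 and 32 under other limits and estimates and between 29 and 31 with either library alone. The family held 0.207% of expected counts, which are not divided by length, against 0.165% of TPM. The count of carriers called different between the libraries was 6 with scaling by total counts, 9 at a fold of 1.5 and 21 with no fold minimum. It was 0 by edgeR's exact test with a common dispersion, where 1 of 35 had an unadjusted p under 0.05. Over all genes, 1275 were called, against 1605 with scaling by total counts, 3122 at a fold of 1.5, 7665 with no fold minimum and 104 by edgeR's exact test. The count of carriers was 1 under the other 6 alternatives, each time Slc25a30. With total count scaling the log2 ratio of Slc25a11 was -0.12 (adjusted p = 5.91e-04, exact binomial test). By expected counts the ratio of Slc25a36 to Slc25a33 was 2.15 and that of Slc25a10 to Slc25a11 was 1.72; the ratio of Slc25a42 to Slc25a16 was 0.786 to 1.37 with either library alone. Expected counts, unlike TPM, are not divided by effective length. That length was 4817 and 5065 bases in replicates 1 and 2 for Slc25a36 against 1731 and 1743 for Slc25a33. It was 1854 and 1871 for Slc25a10 against 583 and 649 for Slc25a11. The cause of the other changes was not tested. No paired analysis was possible because there is 1 group. With either library alone the test between libraries has no value. Depth limits the members under about 10 counts, whose order is open to counting error.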
